A study of Mus musculus with 3 samples.

Results

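Neighbouring genes of mouse chromosome 3, up to the Ras gene Nras and its flank, are described here in 3 mammary tumours. The members are 10 of 12393 genes with a probe set of their own, chosen because earlier results of these arrays showed neighbours of Nras raised together, so their levels are a description and carry no test. Every probe set whose annotation names exactly 1 of these genes was taken, which gave 22 of 20380 probe sets that name 1 gene. In the order of the RefSeq gene table the members run Tbx15, Gdap2, Tent5c, Man1a2, Ptgfrn, Vangl1, Tspan2, Sike1, Nras and Bcas2, all on chromosome 3. Tspan2, Nras, Bcas2 and Man1a2 have 3 probe sets each, Sike1 has 4, Tbx15 2, and the other members 1 each.

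The tumours came from female NMRI mice with the WAP-SVT/t transgene, in which the large T and small t proteins of SV40 are made in mammary epithelium alone, as the labels describe. The Wap promoter, active in milk-producing cells, drives both proteins. All 3 tumours carry the transgene, with no normal gland beside them. Each tumour was measured on 1 array. The titles of tumours 1 and 2 begin with the number 585 and that of tumour 3 with 597, and the labels do not explain these numbers, so tumours 1 and 2 may share a mouse. With 1 group and 1 array per tumour, no difference between tumours has a replicate check, the number of arrays limits the precision, and no p-value is given.

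Nras encodes a small GTPase that cycles between a GDP-bound and a GTP-bound state and passes growth factor signals from receptor tyrosine kinases to the RAF, MEK and ERK kinases. The Ras genes of mammals are known as oncogenes when mutated. The other members have unrelated functions and are grouped here by position alone. DNA copy number was not analysed here.

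The median intensity was 111 to 120 on the 3 arrays. Luminal epithelial markers were all past the low-signal floor (5 of 5), with summed intensities of 19123, 20394 and 20212 in tumours 1, 2 and 3. Tumour 3 stood apart in control probe sets for 18S ribosomal RNA, with 400 against 9856 and 9311 for the middle part and 563 against 5398 and 4615 for the 5′ part. The 3′ part went the other way, with 7147 against 2697 and 1833. It also had lower summed intensities of the 6 macrophage markers (12085, 9886 and 4787 in tumours 1, 2 and 3) and higher ones of the 4 adipocyte markers (500, 417 and 3600). In bulk tumour RNA, fewer cells of a type and less RNA per cell cannot be told apart.

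Upstream sequences are shown for genes within and at the edge of the stretch raised in tumour 2. These genes are Tspan2, with the widest difference, Nras, the last measured gene that was raised, and Bcas2, the next measured, which was not. Each sequence is the 250 bases before the annotated start, from RefSeq, build GRCm38.p6, and capitals mark matches to the motifs named next.
Tspan2 (chr3:102734520-102734769, + strand): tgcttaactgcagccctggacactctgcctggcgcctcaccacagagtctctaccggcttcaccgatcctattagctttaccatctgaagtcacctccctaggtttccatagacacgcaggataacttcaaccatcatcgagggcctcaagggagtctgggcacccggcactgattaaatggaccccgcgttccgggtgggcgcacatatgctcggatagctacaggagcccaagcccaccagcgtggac
Nras (chr3:103058035-103058284, + strand): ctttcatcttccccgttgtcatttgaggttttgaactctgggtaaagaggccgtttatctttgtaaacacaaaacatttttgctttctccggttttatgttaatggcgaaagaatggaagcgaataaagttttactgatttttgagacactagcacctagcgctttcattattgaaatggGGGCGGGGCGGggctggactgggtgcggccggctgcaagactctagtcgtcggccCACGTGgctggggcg
Bcas2 (chr3:103171405-103171654, + strand): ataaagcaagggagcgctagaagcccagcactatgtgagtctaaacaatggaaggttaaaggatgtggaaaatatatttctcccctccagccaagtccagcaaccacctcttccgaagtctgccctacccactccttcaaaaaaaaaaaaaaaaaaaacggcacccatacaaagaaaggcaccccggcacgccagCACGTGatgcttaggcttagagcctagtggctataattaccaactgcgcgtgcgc
The motifs searched on both strands were the GC box GGGCGG, the E-box CACGTG, the E2F motifs TTTCCCGC and TTTGGCGC, the ETS motif CCGGAAGT, CCAAT and TATAAA. The Nras window held 2 GC boxes, which overlap, and 1 E-box, the Bcas2 window held 1 E-box, and the Tspan2 window held no match. Windows were found for 6 of the 10 members (7 windows, as Tspan2 has several starts). A GC box stood in 4 of these 7 windows, those of Gdap2, Tent5c, Ptgfrn and Nras, against 32.7% of all 32851 windows of this length. An E-box stood in 2 of them, those of Nras and Bcas2, against 6.02% of all. Neither E2F motif was found in the 7 windows, against 0.895% and 0.417% of all. An ETS match stood in 1, that of Gdap2, against 2.88%, CCAAT in 2 (Gdap2 and Tent5c) against 33.8%, and TATAAA in 0 against 12.4%. As the Tspan2 window shown held no match, no motif could stand in every window. Members without a window were not searched, so no comparison of raised and other genes is drawn. A match here is a description of letters and says nothing of binding.

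Each of the 8 member genes from Gdap2 to Nras was higher in tumour 2 than in both other tumours on its brightest probe set. Tbx15 before them differed little between tumours 2 and 3, and Bcas2 after them was lowest in tumour 2. In 14 of the 22 probe sets tumour 2 exceeded each of the others by 2-fold or more, against 1.28% of all probe sets that name 1 gene. Tumour 2 was the highest, by any margin, in 33.0% of all probe sets that name 1 gene. Since the members were chosen for this contrast, nothing is read from these counts. The 14 probe sets belong to 7 genes (Gdap2, Man1a2, Ptgfrn, Vangl1, Tspan2, Sike1 and Nras), and the difference ranged from 2.34-fold to 11.4-fold, with a median of 4.63-fold. Folds are differences of log2(intensity + 50) after quantile normalization, a scale that understates the change of dim genes. On the deposited intensities themselves the ratio of tumour 2 to the next tumour ranged from 3.28 to 14.1 over the same probe sets.

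**Figure D1:**
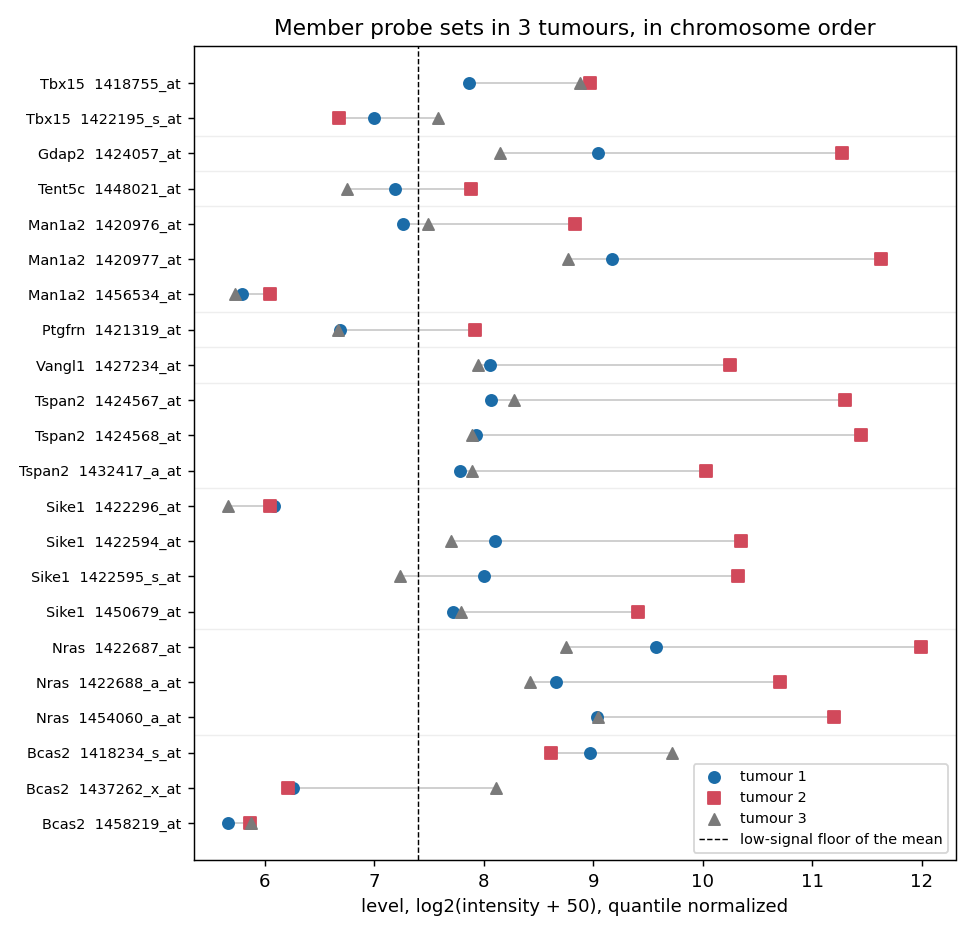
Levels of the 22 member probe sets, as log2(intensity + 50) after quantile normalization, in tumour 1 (circles), tumour 2 (squares) and tumour 3 (triangles), from the first gene in chromosome order at the top to the last at the bottom. Each grey line joins the lowest to the highest tumour of a probe set, and the dashed line is the low-signal floor of 7.40. From Gdap2 to Nras the squares stand to the right of both other tumours in 16 of 17 probe sets, and in Bcas2 they do not. Of all probe sets that name 1 gene, 33.0% were highest in tumour 2, and the members were chosen for this contrast.

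Nras had intensities of 691, 3823 and 374 in tumours 1, 2 and 3 on its brightest probe set. The other 2 probe sets read 345, 1592 and 285, and 457, 2235 and 472. Tumour 2 was the highest on each of the 3, and tumours 1 and 3 lay close together on 2 of them. Tumour 2 exceeded the next tumour 5.34-fold, 4.11-fold and 4.45-fold. On the brightest probe set tumour 1 was also 1.77-fold above tumour 3, which the others did not repeat, at 1.18-fold and 0.991-fold. The suffixed probe sets (with a letter before the ending of the ID), which can take up related transcripts, are the latter 2 of these.

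Gdap2, the first measured gene of the raised stretch, encodes a protein with a macro domain. It read 460, 2348 and 228 in tumours 1, 2 and 3. Tumour 2 was 4.70-fold above tumour 1, and tumour 1 was 1.85-fold above tumour 3. Its pattern over the tumours lay close to that of the brightest Nras probe set, at a distance of 0.13 (the root of the summed squared differences of the 3 deviations, in log2).

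Tent5c, the next gene, encodes a poly(A) polymerase known from plasma cells. It was dim, at 92, 195 and 59. Tumour 2 was highest, 1.62-fold above tumour 1, so Tent5c is the raised-stretch gene just outside the 2-fold threshold and Ptgfrn, at 2.34-fold, the one just inside. Of the 5 B and plasma cell markers on the array, 2 were highest in tumour 2, and their summed intensities were 1621, 2683 and 1656. Most of that sum came from Sdc1 (1400, 2451 and 1470), a proteoglycan gene that epithelial cells also express. The plasma cell marker Jchain read 177, 180 and 144, and the B cell markers Cd79a, Cd79b and Ms4a1 were at most 24 in any tumour. Their part in the value of Tent5c was not tested.

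Man1a2 encodes a Golgi mannosidase that trims N-linked glycans. Its brightest probe set read 507, 3001 and 381, and tumour 2 was 5.50-fold above tumour 1. A second read 100, 423 and 129, with tumour 2 2.52-fold above tumour 3. The remaining probe set was near the bottom of the scale, at 5, 17 and 3. All 3 had tumour 2 highest, the dim one by 0.26 (log2).

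Ptgfrn encodes a membrane protein of the immunoglobulin superfamily that binds tetraspanins. Its probe set read 50, 201 and 53, so tumours 1 and 3 were alike and tumour 2 stood 2.34-fold above them. Its mean was below the floor.

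Vangl1 encodes a core protein of planar cell polarity, the alignment of epithelial cells within a sheet. It read 212, 1180 and 193. Tumour 2 was 4.57-fold above tumour 1, and tumours 1 and 3 differed by 0.11 (log2).

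Tspan2 encodes a tetraspanin, a membrane organiser known from oligodendrocytes and smooth muscle. Its probe sets read 213, 2421 and 254, then 189, 2673 and 184, and then 164, 1012 and 183 in tumours 1, 2 and 3. Tumour 2 was 8.13-fold, 11.4-fold and 4.43-fold above the next tumour. The 11.4-fold gap was number 3 in width for tumour 2 among all 20380 probe sets. Tumours 1 and 3 differed by at most 0.21 (log2) on any of the 3.

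Markers of cell types known to make Tspan2 are given beside it. Of 6 smooth muscle and pericyte markers, 3 were highest in tumour 2 and 0 were at least 2-fold above both others there, with summed intensities of 2385, 2546 and 1358. Those highest in tumour 2 were Rgs5 (661, 1236 and 635), Pdgfrb (344, 403 and 246) and Myh11 (24, 42 and 21). Tagln (1301, 826 and 397) and Cnn1 (40, 20 and 15) were highest in tumour 1, and Des (15, 19 and 44) in tumour 3. Of 3 oligodendrocyte and Schwann cell markers on the array, 2 were highest in tumour 2 and 0 at least 2-fold above both others. Their summed intensities were 948, 1620 and 869, mostly from Cnp (691, 1332 and 702). The myelin genes Mbp and Mag read 234, 239 and 160, and 23, 49 and 7. The part of these cells in the level of Tspan2 was not tested.

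Sike1 encodes a suppressor of the kinase IKK-epsilon in antiviral signalling. It read 219, 1265 and 156 on its brightest probe set. The suffixed probe set read 200, 1239 and 101 and a further one 156, 654 and 169. Tumour 2 stood 4.77-fold, 5.02-fold and 3.07-fold above the next tumour. The last probe set, at 17, 17 and 1, is the only one of the 17 from Gdap2 to Nras in which tumour 2 was not the highest. The suffixed probe set had the pattern closest to the brightest one of Nras among the members, at a distance of 0.11.

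Tbx15, a T-box transcription factor gene of mesenchyme and muscle, precedes Gdap2 and did not follow it. It read 179, 472 and 416, so tumours 2 and 3 were alike (0.09 apart, log2) and tumour 1 was 2.01-fold below the nearer of them. It was the only one of the 22 probe sets in which tumour 1 was at least 2-fold below both others, against 0.564% of all probe sets. Its other probe set was dim, at 74, 55 and 139, and had tumour 2 lowest. The 2 probe sets of Tbx15 therefore disagree about tumour 2.

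Bcas2, which encodes a spliceosome component, follows Nras. Its brightest probe set read 436, 355 and 805, with tumour 2 lowest and tumour 3 1.69-fold above tumour 1. A second read 25, 25 and 221, and the last 1, 9 and 9. The first and second are suffixed. Tumour 3 was the highest on each of the 3, by 0.76, 1.85 and 0.01 (log2), and tumour 2 on none. The 1.85 gap was the only one of the 22 probe sets in which tumour 3 exceeded both others by at least 2-fold, against 2.54% of all probe sets. It rests on a dim probe set.

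**Figure D2:**
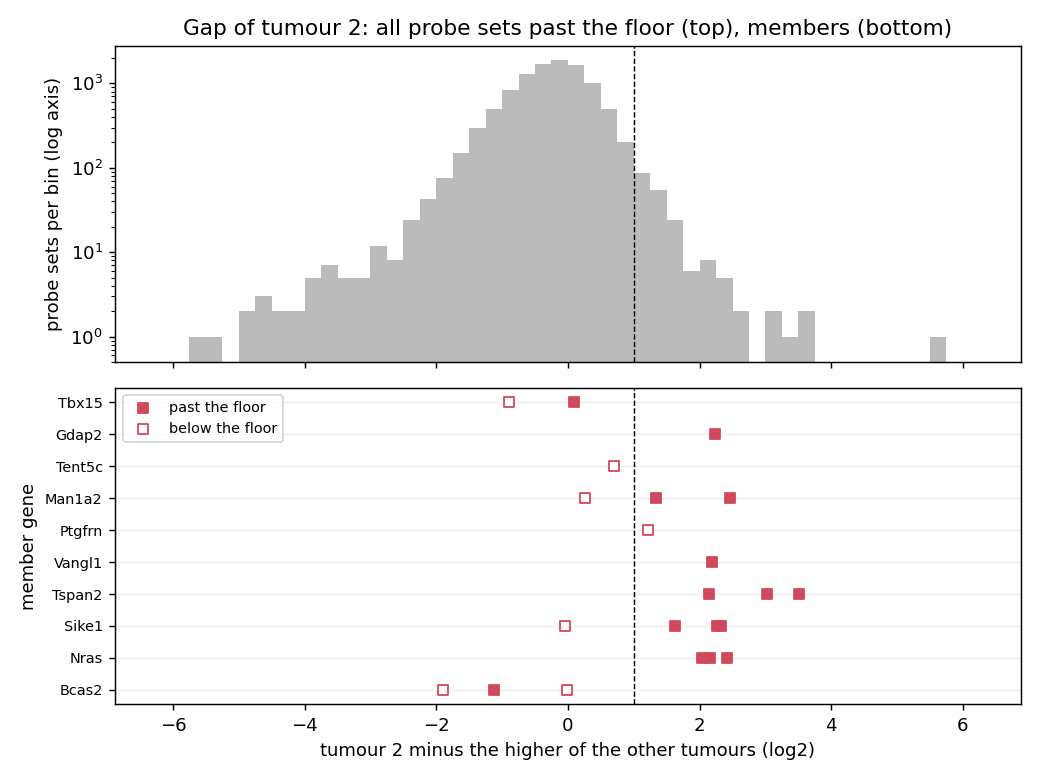
The horizontal axis is the log2 level of tumour 2 minus that of the higher of the other tumours, and the dashed line marks 2-fold. The upper panel counts all probe sets past the floor that name 1 gene, in bins of 0.25 on a log axis. The lower panel shows the member probe sets by gene in chromosome order, filled where past the floor and open where below. All filled squares from Gdap2 to Nras lie to the right of the line, those of Tbx15 and Bcas2 to the left.

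Several member probe sets were dim. The low-signal floor, the median of all mean levels, was 7.40 on the log2 scale, which corresponds to an intensity of 119. Of the 22 probe sets 15 passed it, from 8 of the 10 genes, and Tent5c and Ptgfrn had no probe set past it. Of the 15, the second Man1a2 probe set passed only through tumour 2. Among the 15, 13 were at least 2-fold above both others in tumour 2, against 1.85% of all 10434 probe sets past the floor, and 11 were at least 4-fold above, against 0.201%. A probe set that passed through the tumour in which it is high had to differ, so these counts describe only what was kept.

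Members made up a large share of the widest gaps of tumour 2, the contrast for which they were chosen. Of 27 probe sets at least 4-fold above both others in tumour 2 (0.132% of all), 11 were members (40.7% of that list). Of the 21 that also passed the floor, 11 were members (52.4%). At the 2-fold threshold the members made up 14 of 261, or 5.36%. The 14 probe sets represent 7 genes, so they are not independent readings, and nothing is read from these shares.

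Several members have further probe sets. Among the genes past the floor whose brightest probe set was at least 2-fold above both others in tumour 2 (157 genes), 50 had further probe sets past the floor. Of these 62 further probe sets, 20 (32.3%) were also at least 2-fold above both others. The members contributed 7 of the 62, on Man1a2, Tspan2, Sike1 and Nras, and all 7 repeated the call. The members were chosen for being raised in tumour 2 in these values, so the repeats give no separate support. The 32.3% includes these 7. The Man1a2 probe set among them passed the floor only through tumour 2, which favoured its call. The dim further probe sets of Man1a2 (5, 17 and 3) and Sike1 (17, 17 and 1), which did not repeat it, were removed by the floor. The same share was 71.4% of 14 in tumour 1 and 41.8% of 55 in tumour 3. These shares were not tested against each other.

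In RefSeq 25 protein-coding genes start between Gdap2 and Nras, both included, of which 12 had a probe set naming them alone and 8 are members. The other 4 measured genes are Cd2, of T cells, Casq2, of muscle, Tshb, a pituitary hormone gene, and Sycp1, of meiosis. All 4 were dim: Cd2 read 14, 24 and 5, Casq2 7, 31 and 4, Tshb 22, 43 and 15, and Sycp1 11, 3 and 3 in tumours 1, 2 and 3. Tumour 2 was the highest in 3 of them, by at most 0.48 (log2), and 0 reached 2-fold. They lie below the floor, so the levels give no firm order. All 4 T cell markers on the array were below the floor, with a summed intensity of at most 95. After normalization each was highest in tumour 1, Cd3e (22, 21 and 24) by only 0.01 (log2). Of 5 skeletal muscle markers, 3 were highest in tumour 3 and 0 in tumour 2. The remaining 13 genes were not analysed here. From Tbx15 to Bcas2 there are 31 protein-coding genes, of which 17 had no such probe set. Some of these lie outside Gdap2 and Nras, so the exact ends of the raised stretch are not known.

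On both sides of the members the median level of tumour 2 did not stand apart. The next measured gene before Tbx15 is Hao2, a peroxisomal oxidase gene, at 2, 17 and 8. The next after Bcas2 is Trim33, a transcriptional cofactor gene, at 877, 798 and 791, with a range of 0.21 (log2). Among the 25 measured genes before Tbx15, 1 was at least 2-fold above both others in tumour 2, namely Txnip, a regulator of glucose uptake, with 1077, 2366 and 1128. Among the 25 after Bcas2 it was 0. The median deviation of tumour 2 from the mean of the tumours was 0.00 on both sides, against 1.57 over the 10 members, each by its brightest probe set. The members were chosen for being raised in tumour 2, so this contrast was set by the choice. Of the 25 genes before and the 25 after, 14 and 15 passed the floor, against 8 of the 10 members. Dim genes differ less on this scale. Deviations of tumours 1 and 3 over the members (-0.57 and -0.88) follow in part from tumour 2 being high, since the mean includes it.

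**Figure D3:**
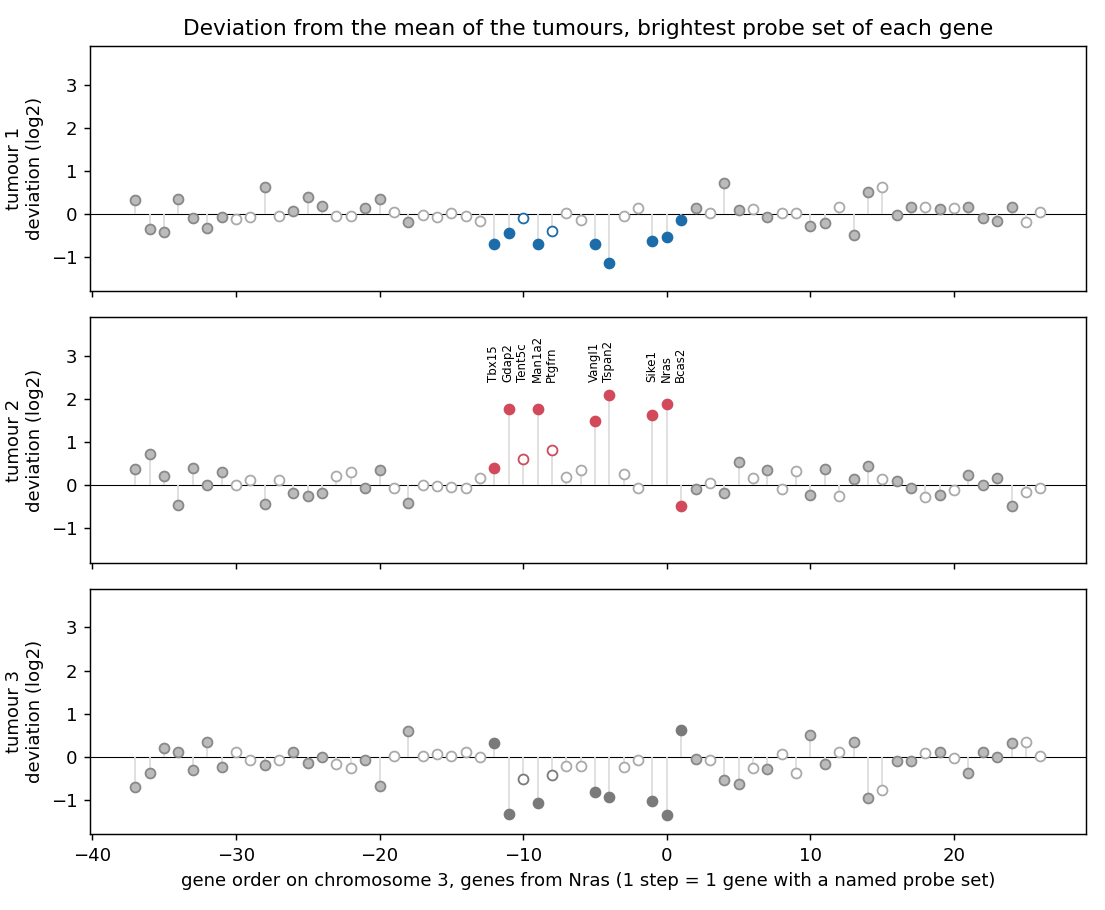
Level of each tumour minus the mean level over the 3 tumours (log2) for the members, the 4 other measured genes between them and 25 measured genes on each side, by the brightest probe set. The horizontal axis counts measured genes from Nras, coloured points are members, and open points lie below the floor. In tumour 2 the members from Gdap2 to Nras stand between 0.61 and 2.09, and the points on both flanks lie between -0.47 and 0.73. The members were chosen for this contrast.

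Along whole chromosomes the stretch held the highest value of tumour 2 in windows of 11 genes. A running median of the deviation over 11 successive measured genes was taken along every chromosome, 12159 windows in all. For tumour 2 it peaked at 0.83 from Gdap2 to Sike1, against 0.02 for the median window, and the highest value elsewhere was 0.66, on chromosome 14 from Mcpt-ps1 to Gzmf. With genes past the floor alone the peak was 1.5, from Chd1l to Nras, and the highest value elsewhere 0.59. That window also takes in genes before Tbx15. In windows of 21 genes, wider than the stretch, the peak was 0.36 against 0.35 on chromosome 14, and with genes past the floor alone chromosome 14 was higher, at 0.41 against 0.36. Tumour 3 had a higher peak of its own on chromosome 6, 1.99 from H2aj to Dera. As these members were found by such values, the peak is a description.

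**Figure D4:**
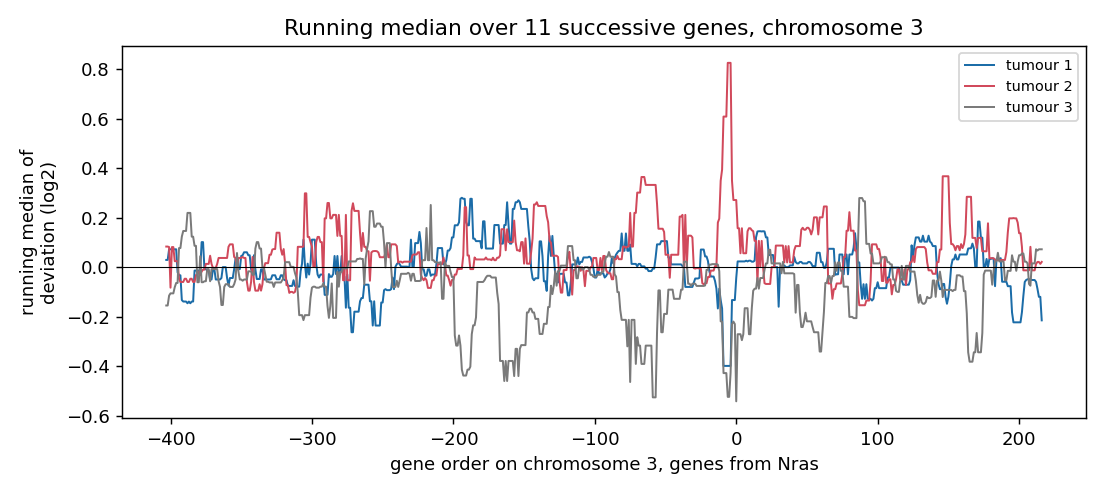
Running median over 11 successive measured genes of the deviation from the mean of the tumours (log2), along chromosome 3 in gene order counted from Nras. The line of tumour 2 reaches 0.83 just before Nras, its highest value on the chromosome, where the lines of tumours 1 and 3 fall below 0.

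Counting successive genes past the floor that were at least 2-fold above both others, the longest run of tumour 2 was 6 genes, Gdap2, Man1a2, Vangl1, Tspan2, Sike1 and Nras. Its next longest runs were of 2 genes, such as S100a8 and S100a9. The longest run of tumour 1 was 3 genes and that of tumour 3 was 5, from Emp1 to Wbp11 on chromosome 6. Over chromosome 3 as a whole the median deviation of tumour 2 was 0.05, and 3.49% of its 630 measured genes were at least 2-fold above both others in tumour 2, the stretch included. That share was 3.43% on chromosome 14 and 2.68% on chromosome 1.

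Tumours 1 and 3 differed less along the stretch. Of the 13 probe sets past the floor from Gdap2 to Nras, tumour 1 was above tumour 3 in 8, and in 0 by 2-fold. The ratio ranged from 0.852-fold to 1.85-fold, with a median difference of 0.11 (log2) against 0.01 over all probe sets past the floor. Gdap2 (1.85-fold), the brightest Nras probe set (1.77-fold) and the suffixed Sike1 probe set (1.69-fold) had the widest differences.

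Genes of the Ras and MAP kinase pathway were next compared over the same tumours. Of 40 pathway genes listed, 32 had a probe set naming them alone and 26 passed the floor. In tumour 2, 2 of the 26 were at least 2-fold above both others, Nras and the cyclin gene Ccnd1, against 2.26% of all 6952 genes past the floor. Nras was chosen for being raised in tumour 2, so its call was set by that choice. Without Nras the count was 1 of 25. In tumour 3, 1 was at least 2-fold below both others, against 4.8%, and in the 4 other counts there were 0.

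Ccnd1, the cyclin D1 gene and a late target of the pathway, read 356, 1634 and 742, with tumour 2 2.16-fold above tumour 3. Other genes induced by ERK signalling had the same order as Ccnd1, with tumour 1 lowest, without reaching 2-fold. The brightest Nras probe set differs in this, with tumour 1 1.77-fold above tumour 3. Of the genes named next, Spry1 and Egr1 were taken for their wide range, and the others were picked after their values were seen. Spry1, a feedback inhibitor, read 647, 1674 and 1025, Egr1, an immediate early factor, 1938, 4313 and 3155, and the ERK phosphatase gene Dusp6 2572, 5116 and 4113. In these, tumour 2 exceeded tumour 3 by 0.73, 0.62 and 0.49 (log2). Etv4 (468, 531 and 418), Etv5 (455, 475 and 599), Spry2 (428, 533 and 502) and Myc (861, 1162 and 1078), further genes that respond to ERK, differed less. Phlda1, also induced by ERK, was highest in tumour 3, at 2876, 3415 and 5523.

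The GTPase gene Rras2 read 688, 708 and 289 and the adaptor gene Shc1 406, 493 and 185, low in tumour 3. Without Nras the median deviation of the 25 remaining genes was -0.18, 0.28 and -0.06 in tumours 1, 2 and 3. Over all genes past the floor it was 0.02, 0.06 and -0.07. The kinase genes Map2k1 (873, 1001 and 578), Map2k2 (724, 792 and 498) and Araf (358, 503 and 301) were highest in tumour 2 by at most 0.35 (log2). Lowest in tumour 2 were the kinase gene Braf (50, 43 and 74, below the floor), the adaptor gene Grb2 (398, 356 and 624) and the phosphatase gene Ptpn11 (1008, 894 and 1156). Etv5 was lowest in tumour 2 only after normalization, by 0.04 (log2).

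Outside the stretch, the 5 genes past the floor whose pattern over the 3 tumours lay nearest to that of the brightest Nras probe set were Avpr1a, Dll1, Csf3, Lamb3 and Col2a1, out of 6944 candidates. Avpr1a, a vasopressin receptor gene, read 64, 758 and 37. The Notch ligand gene Dll1 read 209, 1050 and 63, the laminin gene Lamb3 306, 1309 and 151, the growth factor gene Csf3 96, 555 and 39 and the collagen gene Col2a1 287, 1271 and 83. Their distances from Nras ranged from 0.29 to 0.42. Among the raised member probe sets, 2 were nearer, those of Gdap2 (0.13) and the suffixed Sike1 probe set (0.11), and 1, of Man1a2, lay at 0.33. The others were farther, among them Sike1 (0.43 and 1.15), Vangl1 (0.69), Tspan2 (0.77 to 0.83) and the other Nras probe sets (0.68 and 0.80). Avpr1a and Csf3 passed the floor only through tumour 2. The likeness is a description over 3 values.

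Some stromal markers were also highest in tumour 2. Of 6 fibroblast markers 4 were highest in tumour 2 and 1, Lum (196, 729 and 289), was at least 2-fold above both others, with summed intensities of 11349, 11988 and 9165. Of 5 endothelial markers 4 were highest in tumour 2 and 0 at least 2-fold above both, with sums of 601, 728 and 433. Only 2 of the 5 passed the floor, Eng and Cdh5, and tumour 2 led by 0.01 and 0.19 (log2). Pecam1, below the floor, was lowest in tumour 2. Of all probe sets past the floor, 34.1% were highest in tumour 2. No marker of these lists was at 0 in any tumour. The part of these cell types in the levels of the members was not tested.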

How the data were processed

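Expression in 3 mammary tumours was measured on 1-colour arrays, per the labels from total RNA extracted with RNAzol and made into biotinylated cRNA. The table the authors deposited gives 1 intensity per probe set and tumour, as whole numbers on a linear scale (inferred from the values), with summarisation, background and scaling not given in the sources used here. Of 22690 probe sets 64 were controls and were left out. A platform annotation named 1 gene for 20380 of the rest, several for 691 and was silent on 1555, and 20351 gene IDs matched the RefSeq table of GRCm38.p6, used for names and gene order.

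Arrays were quantile normalized, because their 2% trimmed means differed by 5.38%, more than the 5% allowed, and an offset of 50 was added before log2. A gene took its brightest probe set where probe sets are not given apart. The 3 tumours form 1 group and no test was run, so values are described against all probe sets (share past 2-fold). The members and lists were chosen with earlier results of these data known; the counts of runs, repeated probe sets and widest gaps were added after the values were seen. Named were all members, flank genes past 2-fold in tumour 2 or next to the members, the 5 Ras pathway genes of widest range (Nras, Ccnd1, Spry1, Egr1, Rras2) and the 5 nearest patterns to Nras. Further pathway genes and single markers were picked with their values in view. The running median and the counts were tested on simulated data. Alternatives covered the normalization, the offset, the fold, the floor, suffixed probe sets, the window and each tumour left out. Python 3.11.15, numpy 2.4.6, pandas 2.3.3 and matplotlib 3.10.9 were used.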

Additional observations from a re-analysis of the deposited data

How the results depend on the processing

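The count of 14 member probe sets at least 2-fold above both others in tumour 2 was 14 with values as deposited, with array medians subtracted and with an offset of 16, and 13 with an offset of 100, where all 14 kept their direction. It was 15 at 1.5-fold, 11 at 4-fold, 10 without suffixed probe sets, 13 past the floor, 12 past the floor by the other tumours and 7 with 1 probe set a gene, the last being a change of unit. Without tumour 1 or without tumour 3 it was 15, Tbx15 joining when tumour 3 is left out; without tumour 2 it has no value. The median deviation of the members in tumour 2 (1.27) ranged from 0.93 to 0.94 with a tumour left out and from 1.1 to 1.57 otherwise. Those of tumours 1 and 3 were 0.02 and -0.02 once tumour 2 was left out. The pathway count of 2 was 5 without tumour 1 and 5 without tumour 3, since only 1 tumour then has to be exceeded. Single probe sets moved in 7 cases, all of them dim ones or ones of Tbx15 and Bcas2. Values changed sign in 4 cases. Without tumour 1 the dim Sike1 probe set went from -0.04 to 0.38, and without tumour 3 the dimmest Bcas2 probe set from -0.01 to 0.2. Without tumour 2 the member median of tumour 1 went from -0.59 to 0.02 and the pathway median of tumour 3 from -0.06 to 0.07. All but the member median of tumour 1 were near 0 to begin with. None of the 14 called probe sets changed sign. No paired analysis was possible because the samples form 1 group. Precision is limited by 1 array per tumour, and probe sets below the floor give no firm order.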
